A study of Mus musculus with 20 samples.

Results

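Cytokine and interferon receptors decide which secreted signals a macrophage can read, and 10 of their chains were followed in macrophages of the mouse dura mater. Rows were taken by gene symbol from the 33243 symbols of the count table, with earlier results of these data known: Il4ra, Il13ra1, Il6ra, Il10ra, Il10rb, Ifngr1, Ifngr2, Ifnar1, Ifnar2 and Tgfbr2. All 10 were among the 16632 genes tested.

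A chain of these receptors rarely works alone. The product of Il4ra pairs with the common gamma chain (Il2rg) or with that of Il13ra1 to read IL-4 and IL-13 through STAT6, and that of Il6ra pairs with gp130 (Il6st) to read IL-6 through STAT3. IL-10 is bound by the chain from Il10ra, which needs the widely shared partner from Il10rb, and interferon gamma by the chains from Ifngr1 and Ifngr2. Type I interferons are read by the chains from Ifnar1 and Ifnar2, and Tgfbr2 encodes the chain that captures TGF-beta and then engages Tgfbr1 and the SMAD proteins. In macrophages IL-4, IL-13, IL-10 and TGF-beta are known for restraining or redirecting inflammation, and the interferons for raising antimicrobial and antiviral programmes.

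RNA was sequenced from dural macrophages (dCAMs, the CNS-associated macrophages of this outer membrane of the brain), sorted as CD45int CD11b+ CD206int-high cells. All 10 mice had the genotype Ccr2creERT2/+ R26tdT/tdT, and the study's methods state that gavage began in young adult animals, while the labels give no age. Every mouse, controls included, received BLZ945, an inhibitor of the CSF1 receptor that depletes macrophages, at 200 mg/kg for 7 days, and tamoxifen at 2 mg per day on the last of these days and again 2 and 4 days later. Then, 8 weeks after BLZ945, 5 mice received lipopolysaccharide (LPS, a bacterial membrane component) at 2.5 mg/kg and 5 received PBS (CTL), and the dura was taken 12 h later. Each mouse gave a tdT+ and a tdT- library, so that there were 20 libraries in 4 groups of 5, named here by the number of the mouse (174, 175, 177, 178 and 179 for CTL, and 54, 56, 59, 60 and 61 for LPS). The Cre is driven from the Ccr2 locus, so that tdT marks cells that expressed Ccr2, or whose precursors did, when tamoxifen was present. A tdT- cell may have another origin or may have escaped recombination.

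All 12 border macrophage markers examined (Mrc1, Cd163, Lyve1, Folr2, Pf4, Csf1r, Adgre1, Itgam, Ptprc, Cd68, Fcgr1 and Aif1) exceeded 3 counts in every library. Library totals were 6017650 to 12208203 counts in CTL and 12073566 to 18925908 in LPS, and depth and treatment cannot be told apart in the totals. With every library thinned to the smallest total, the counts of called receptors given below were the same, 5 for LPS in tdT- and 4 in tdT+ cells. The thinned fit called 2113 and 1073 of 15560 genes. Libraries from tdT- CTL cells stood apart from each other. Genes with at least 10 counts numbered 6671 to 9365 in them, 10024 to 11032 in tdT+ CTL and 10930 to 11987 in LPS libraries. Totals of the tdT- CTL libraries, 6649046 to 9495177 counts, lay within the range of the tdT+ CTL libraries. The part of this lower number of genes in the receptor values was not tested. Over 5823 genes with a mean log2 CPM (counts per 1e6 counts of the library, with TMM scaling) of at least 4, the median coefficient of variation in CTL was 73.5% for tdT- and 29.5% for tdT+ cells, and after LPS 18.4% and 16.6%. Among tdT- CTL libraries, the summed level of 5 fibroblast markers was 3993 CPM in mouse 179 and 10.9 to 876 CPM in the other mice. That of 5 dendritic cell markers, chiefly Cd209a, was 404 to 3319 CPM, against 49.1 to 77.1 CPM in tdT+ CTL and 5.74 to 74.0 CPM in LPS, and Flt3 and Zbtb46 of this list reached 348 and 197 CPM in tdT- CTL (medians 30.7 and 44.0), while Xcr1 and Clec9a did not exceed 3.04 CPM in any library. The receptor whose locus drives the label, Ccr2, was itself at 419 to 906 CPM in tdT- CTL and 160 to 463 CPM in tdT+ CTL libraries.

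The 10 genes lie at 7 places in the genome. Coordinates are from GRCm38 with the GENCODE M21 annotation, which may not be the build the reads were aligned to. Il4ra spans chr7:125552120-125579474 on the plus strand, Il13ra1 chrX:36112110-36171259 (plus), Il6ra chr3:89864059-89913196 (minus), Ifngr1 chr10:19591949-19610229 (plus), Il10ra chr9:45253837-45269149 (minus) and Tgfbr2 chr9:116084293-116175360 (minus). The other 4 form a run on the plus strand of chromosome 16, in the order Ifnar2 (91372783 to 91405589), Il10rb (91406164 to 91425834), Ifnar1 (91485238 to 91507441) and Ifngr2 (91547072 to 91565623), which covers 192841 bases. Within it, Ifnar2 ends 574 bases before Il10rb begins. The annotated readthrough gene Gm21970 shares 315 exon bases with Ifnar2 and 569 with Il10rb, which is 14.9% of the exon bases of Il10rb. Antisense genes share 9.51% of the exon bases of Il4ra (Gm44876) and 2.80% of those of Il6ra (Gm42809). The partners were not analysed here, and the strand setting of the counting is not given in the sources used here, so that reads of these partners cannot be told from those of the 4 receptor genes.

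The sequences just before the start of 4 receptor genes are shown because these genes passed the test for LPS described below, Il4ra and Il6ra upward and Tgfbr2 and Ifngr1 downward. They are RefSeq sequences on GRCm38.p6, printed 5′ to 3′ on the strand of the gene, and capitals mark matches to a kappaB motif (GGGNNNNNCC on either strand), the letters that NF-kappaB proteins prefer. The Il6ra stretch is chr3:89913197-89913446, that of Tgfbr2 chr9:116175364-116175613, that of Ifngr1 chr10:19591699-19591948, and that of Il4ra chr7:125552021-125552119, which was shortened to the 99 bases before the gene's annotated start.
Il4ra: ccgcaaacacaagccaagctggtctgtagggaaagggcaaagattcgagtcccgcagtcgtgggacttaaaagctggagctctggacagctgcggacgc
Il6ra: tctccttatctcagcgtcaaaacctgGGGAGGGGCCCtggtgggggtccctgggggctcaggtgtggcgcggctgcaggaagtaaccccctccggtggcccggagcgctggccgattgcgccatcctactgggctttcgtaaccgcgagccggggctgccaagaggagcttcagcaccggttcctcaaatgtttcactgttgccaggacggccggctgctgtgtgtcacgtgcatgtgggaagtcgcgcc
Tgfbr2: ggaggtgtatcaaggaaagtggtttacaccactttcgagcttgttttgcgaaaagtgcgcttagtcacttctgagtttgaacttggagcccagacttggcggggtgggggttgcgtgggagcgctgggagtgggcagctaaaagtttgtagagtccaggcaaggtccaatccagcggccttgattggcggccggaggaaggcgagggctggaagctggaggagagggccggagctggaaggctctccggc
Ifngr1: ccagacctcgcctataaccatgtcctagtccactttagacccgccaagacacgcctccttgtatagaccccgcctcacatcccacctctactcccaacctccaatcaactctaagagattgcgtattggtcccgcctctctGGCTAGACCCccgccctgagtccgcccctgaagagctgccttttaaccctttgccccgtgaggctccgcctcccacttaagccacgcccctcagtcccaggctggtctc

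Promoters of 8 of the 10 genes were found in the table (none for Il10ra and Il10rb), and 250 bases before each RefSeq start were searched on both strands. For Il4ra, 151 of these bases lie inside the gene as annotated above, and 99 lie before it. A kappaB match was present in 4 of the 8, against 45.8% of all 32851 promoters. It occurred at 224 and 223 bases before the start of Il6ra in overlapping letters, at 109 for Ifngr1, at 114, 42 and 37 for Il13ra1 and at 202, 76, 75 and 51 for Ifngr2. Il4ra and Tgfbr2, the genes with the largest changes after LPS, had no such match in this window. The interferon-gamma-activated motif TTCNNNGAA, which STAT proteins bind, was found for Ifnar2 alone (214 bases before the start; 7.02% of all promoters), and the STAT6 spacing TTCNNNNGAA for Ifngr2 alone (91 bases; 5.85%). The interferon-stimulated element GAAANNGAAA was found in 0 of the 8 (2.98% of all promoters). These matches describe letters and say nothing of binding.

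Before LPS, the interferon gamma receptor chain Ifngr1 had the highest level per length of the 10 transcripts. In CPM per kilobase of exon its median was 287 in tdT- CTL and 337 in tdT+ CTL. Il10ra came next at 96.5 and 159, and its libraries did not overlap with those of Ifngr1 in either population. In tdT+ CTL the following places were taken by Tgfbr2 (93.8), Ifngr2 (85.8), Il13ra1 (70.4), Il4ra (53.3), Ifnar1 (39.6), Ifnar2 (35.1) and Il6ra (10.9 CPM per kilobase). The range of Tgfbr2 overlapped with that of Ifngr2, and each from Il13ra1 to Ifnar2 overlapped with the next, whereas gaps lay above Tgfbr2, between Ifngr2 and Il13ra1, and above Il6ra. Il10rb, the shared chain, was last with a median of 0.928 in tdT- CTL and 1.75 CPM per kilobase in tdT+ CTL, and its counts of 17 to 178 per CTL library leave it the least precisely measured.

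After LPS the order differed at the top. Il4ra stood first with medians of 207 CPM per kilobase in tdT- and 257 in tdT+ cells, ahead of Ifngr1 at 167 and 178, and the libraries of these genes did not overlap in either population. Tgfbr2 held rank 4 in tdT- CTL and rank 3 in tdT+ CTL, and rank 8 in both LPS groups, at 20.1 and 23.5 CPM per kilobase. Il6ra and Il10rb held ranks 9 and 10 in all 4 groups.

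**Figure D1:**
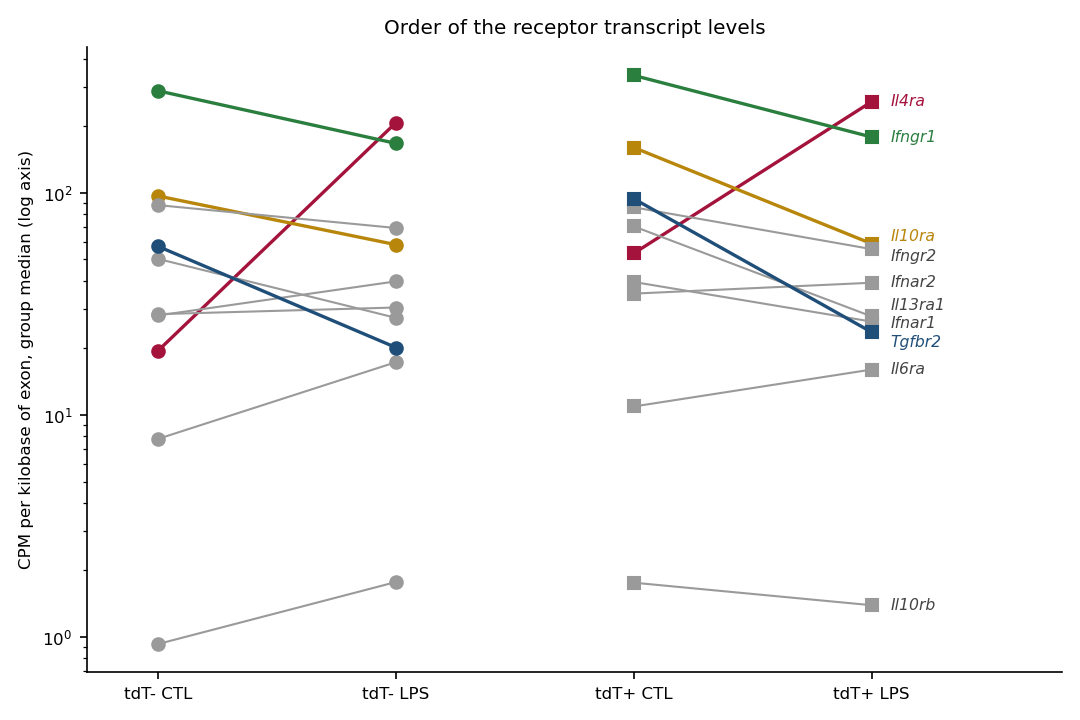
Group medians of the 10 receptor transcripts in CPM per kilobase of exon (log axis), joined from CTL to LPS within tdT- cells (circles) and within tdT+ cells (squares), n = 5 libraries per group. Il4ra (red) crosses from 19.4 to 207 in tdT- and from 53.3 to 257 in tdT+ cells and passes Ifngr1 (green), while Tgfbr2 (blue) and Il10ra (gold) descend.

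LPS raised Il4ra and Il6ra and lowered Tgfbr2, Ifngr1 and Il10ra in tdT- dCAMs. In tdT+ dCAMs it raised Il4ra and lowered Tgfbr2, Il10ra and Ifngr1. These calls rest on edgeR's quasi-likelihood test fitted over all 16632 genes with Benjamini-Hochberg adjustment and a threshold of 0.05. In tdT- cells 2 receptor genes were called higher, against 7.67% of all genes tested, and 3 lower, against 4.85%. In tdT+ cells 1 was called higher (3.79% of all genes) and 3 lower (2.83%). Of the called receptors 3 in tdT- cells also changed more than 2-fold (11.5% of all genes), as did 3 in tdT+ cells (5.89%). The libraries of LPS and CTL mice did not overlap for 4 of the 10 in tdT- cells (12.6% of all genes) and for 6 of the 10 in tdT+ cells (17.8%). The median log2 fold change of the 10 was -0.35 in tdT- and -0.66 in tdT+ cells, where the median of all genes was 0.02 and 0.01. In bulk RNA, fewer cells with a transcript and less of it per cell cannot be told apart.

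**Figure D2:**
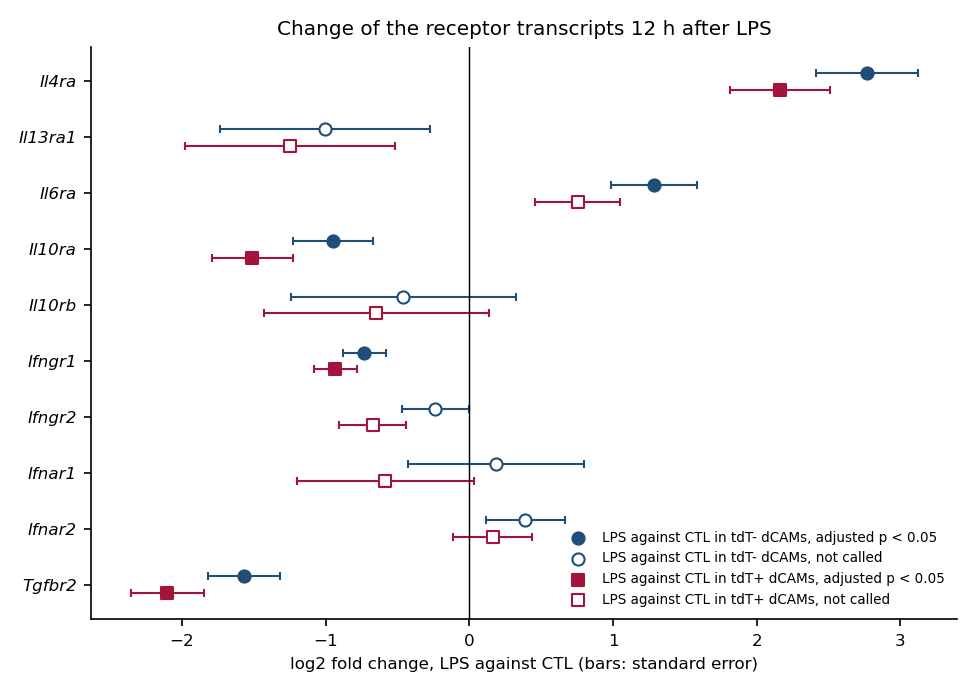
Log2 fold change of each receptor transcript after LPS against CTL with its standard error, in tdT- cells (circles) and tdT+ cells (squares), n = 5 libraries per group. Filled symbols passed the adjusted threshold. Il4ra lies furthest to the right at 2.77 and 2.16, and Tgfbr2 furthest to the left at -1.57 and -2.10.

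Il4ra, the chain through which IL-4 and IL-13 are read, rose the most. In tdT- CTL libraries it was at 117, 295, 76.6, 72.6 and 348 CPM (mice 174, 175, 177, 178 and 179), and in tdT- LPS libraries at 1219, 1258, 1241, 1284 and 1182 CPM (mice 54, 56, 59, 60 and 61). In the same order of mice, tdT+ CTL libraries held 492, 320.0, 363, 256 and 257 CPM and tdT+ LPS libraries 1578, 1518, 1359, 1569 and 1542 CPM. Every LPS library thus lay above every CTL library of either population, and the LPS libraries were tightly grouped, with a coefficient of variation of 3.14% in tdT- and 5.91% in tdT+ cells against 71.6% and 28.9% in CTL. The rise was 6.80-fold in tdT- cells (log2 fold change 2.77 ± 0.35, SE; adjusted p = 1.72e-05) and 4.48-fold in tdT+ cells (2.16 ± 0.35, adjusted p = 0.000224).

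Its partner Il13ra1, the second chain of the IL-13 receptor, had lower means after LPS but was not called. In tdT- CTL libraries it was at 411, 134, 267, 187 and 0.131 CPM in the order of mice above, the last being 1 count in mouse 179, and in tdT- LPS libraries at 120, 87.8, 101, 110 and 79.1 CPM. In tdT+ cells it was at 160, 261, 261, 290 and 277 CPM in CTL and at 122, 89.8, 103, 126 and 86.3 CPM in LPS. The tdT+ groups were free of overlap, and the tdT- groups were so except for mouse 179. With all mice the log2 fold changes were -1.004 ± 0.73 (adjusted p = 0.371) and -1.25 ± 0.73 (adjusted p = 0.384). Without mouse 179 they were -1.33 (adjusted p = 0.00339) and -1.21 (adjusted p = 0.0107), past the threshold in both populations. The tdT+ change also passed with the libraries of the comparison alone (adjusted p = 0.000393) and with quality weights (0.00536). The tdT- library of mouse 179 is the library with 3993 CPM of fibroblast markers, and the part of these in the result was not tested.

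**Figure D3:**
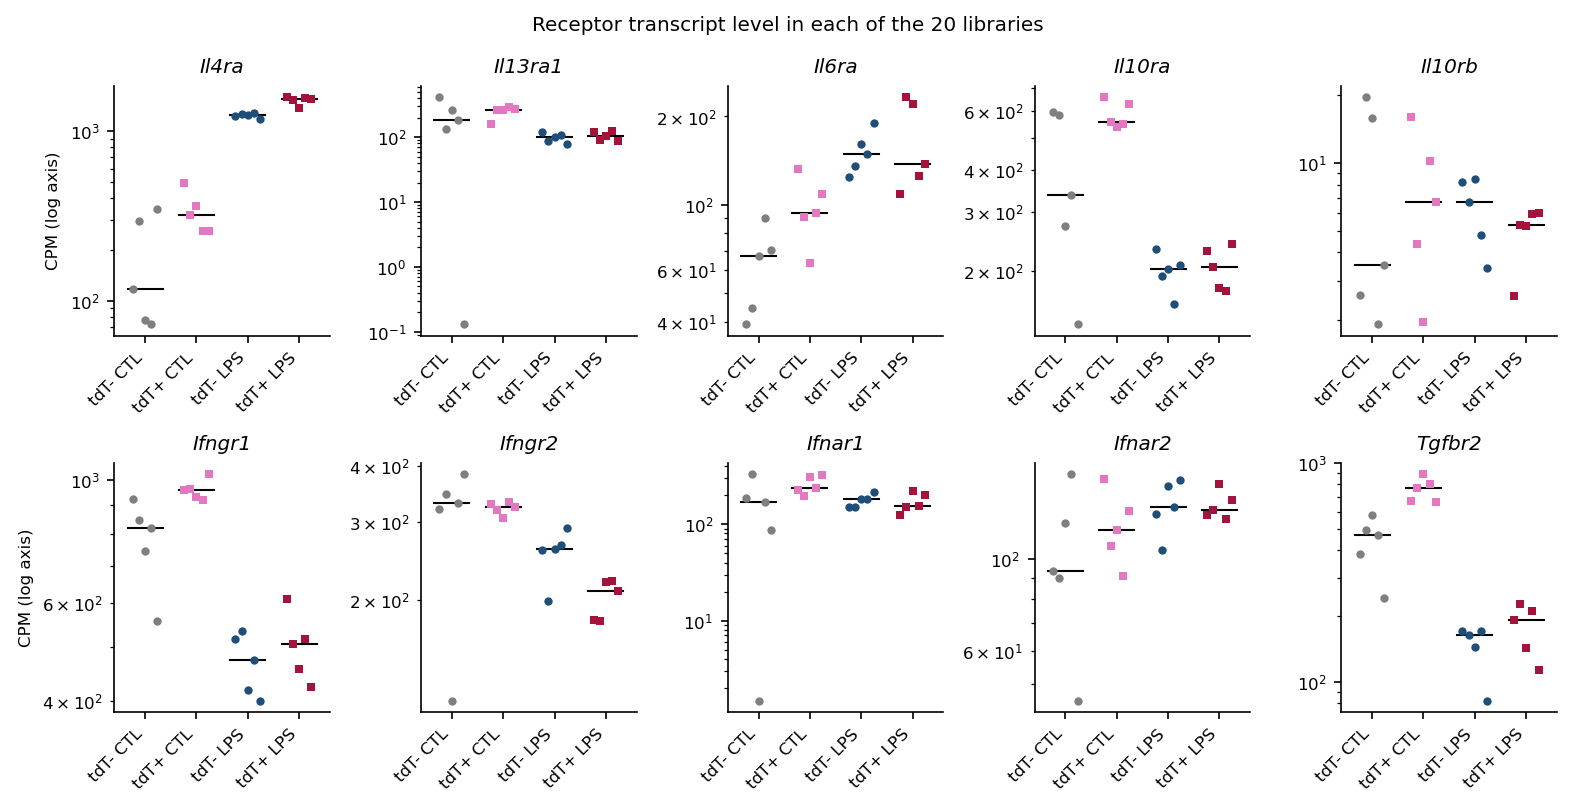
CPM (log axis) of the 10 receptor transcripts in each of the 20 libraries, with 5 libraries per group and the group median as a bar. The grey tdT- CTL points scatter most, with single libraries near the bottom for Il13ra1 (0.131 CPM), Ifnar1 (1.47 CPM) and Ifngr2 (119 CPM), and the LPS groups are narrow and separate from CTL for Il4ra.

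The ratio of these chains differed accordingly. Per kilobase of exon, Il4ra was at 0.241 times the level of Il13ra1 in the median tdT- CTL library and 0.757 times in tdT+ CTL, and at 7.58 and 8.17 times after LPS. The tdT+ ratios were 0.546 to 1.90 in CTL and 7.72 to 11.05 in LPS. The tdT- ratios were 6.27 to 9.25 in LPS and 0.175 to 1.36 in the CTL mice other than 179, where the single count of Il13ra1 puts the ratio at 1646.

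**Figure D4:**
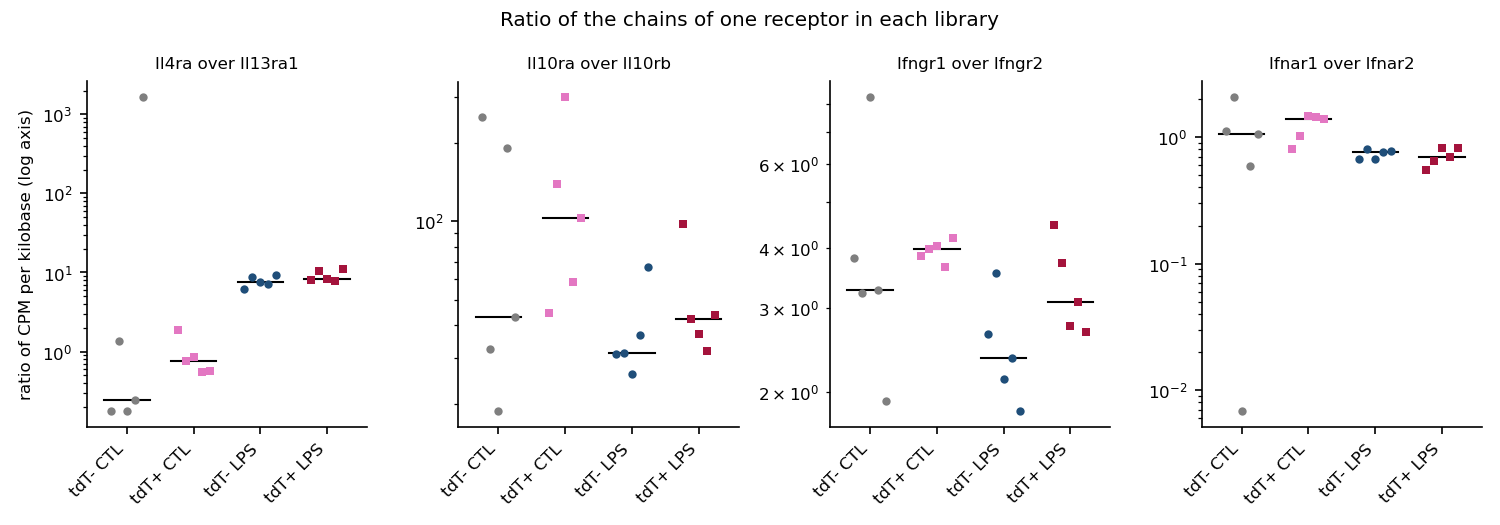
Ratio of CPM per kilobase between the chains of a receptor in each library (log axis), 5 libraries per group with the median as a bar. The ratio of Il4ra to Il13ra1 goes from medians of 0.241 and 0.757 in CTL to 7.58 and 8.17 in LPS, with mouse 179 at 1646 in tdT- CTL, and that of Ifnar1 to Ifnar2 lies at 0.00677 in mouse 177 of tdT- CTL.

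Il6ra, which encodes the chain that binds IL-6, rose in tdT- cells. Its levels there were 39.3, 44.7, 67.3, 90.1 and 70.5 CPM in CTL and 125, 136, 162, 149 and 189 CPM in LPS, without overlap. The change was 2.44-fold (log2 1.29 ± 0.30, adjusted p = 0.00618). It was not called when only the libraries of this comparison were fitted (adjusted p = 0.0602) or with voom quality weights (adjusted p = 0.183). In tdT+ cells the levels were 133, 90.8, 63.6, 94.1 and 109 CPM in CTL and 109, 232, 221, 126 and 138 CPM in LPS, which overlap, and the log2 fold change of 0.75 ± 0.30 was not called (adjusted p = 0.157; 0.0417 with quality weights).

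Tgfbr2, the ligand-binding chain of the TGF-beta receptor, fell the most. In tdT- cells it was at 386, 494, 582, 469 and 242 CPM in CTL and at 171, 164, 144, 172 and 82.3 CPM in LPS. In tdT+ cells it was at 674, 768, 894, 800.2 and 666 CPM in CTL and at 193, 227, 143, 211 and 113 CPM in LPS. All 5 tdT+ CTL libraries lay above the other 15, and neither population had an LPS library as high as its lowest CTL library. The level was 2.96-fold lower after LPS in tdT- cells (log2 -1.57 ± 0.25, adjusted p = 0.000203) and 4.29-fold lower in tdT+ cells (-2.10 ± 0.26, adjusted p = 8.43e-06).

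Il10ra, the chain specific to the IL-10 receptor, was lower after LPS in both populations, with firmer evidence in tdT+ cells. In tdT+ cells it was at 658, 558, 538, 547 and 629 CPM in CTL and at 229, 206, 178, 175 and 242 CPM in LPS. These groups were far apart, a 2.85-fold difference (log2 -1.51 ± 0.28, adjusted p = 0.00114). In tdT- cells it was at 596, 584, 273, 338 and 139 CPM in CTL and at 234, 193, 204, 161 and 209 CPM in LPS, and mouse 179 of CTL lay below every LPS library. The log2 fold change there was -0.95 ± 0.28 (adjusted p = 0.0276), and the call was lost without any of mice 54, 56, 59, 60, 61, 174 and 175 (-0.65 to -0.96, adjusted p = 0.0599 to 0.114) and with the libraries of the comparison alone (adjusted p = 0.157). Its partner Il10rb was at 1.92 to 19.5 CPM over the 20 libraries, and its log2 fold changes of -0.46 ± 0.78 and -0.65 ± 0.78 were not called (adjusted p = 0.744 and 0.773).

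Of the interferon gamma receptor, Ifngr1 fell in both populations. It was at 926, 847, 746, 818 and 557 CPM in tdT- CTL and at 518, 535, 420, 474 and 401 CPM in tdT- LPS libraries. In tdT+ cells it was at 960, 963, 932, 921 and 1025 CPM in CTL and at 611, 506, 457, 517 and 424 CPM in LPS. No CTL and LPS library of a population overlapped. The fall was less than 2-fold but precise, at 1.66-fold in tdT- cells (log2 -0.73 ± 0.15, adjusted p = 0.00208) and 1.91-fold in tdT+ cells (-0.93 ± 0.15, adjusted p = 0.000220).

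The accessory chain Ifngr2 was at 306 to 333 CPM in tdT+ CTL and 180 to 221 CPM in tdT+ LPS libraries, again without overlap, but its log2 fold change of -0.67 ± 0.23 was not called (adjusted p = 0.0993). It passed the threshold without mouse 177 (-0.69, adjusted p = 0.0128), whose tdT- library held 119 CPM against 320 to 384 CPM in the other tdT- CTL libraries, and under DESeq2 (adjusted p = 0.0349), the stricter filter (0.0457), the replicate block with voom (0.0383), quality weights (0.000896) and the libraries of the comparison alone (0.00114). In tdT- cells the change was -0.23 ± 0.23 (adjusted p = 0.528). The ratio of Ifngr1 to Ifngr2 per kilobase had CTL medians of 3.27 for tdT- and 3.99 for tdT+ cells and LPS medians of 2.36 and 3.09, with overlapping ranges.

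No call was made for the type I interferon receptor. Ifnar1 was at 187, 333, 1.47, 168 and 86.1 CPM in tdT- CTL, with 12 counts in mouse 177, and at 152 to 214 CPM in tdT- LPS libraries. In tdT+ cells it was at 194 to 320 CPM in CTL and 125 to 221 CPM in LPS. Its log2 fold changes were 0.18 ± 0.61 in tdT- (adjusted p = 0.886) and -0.58 ± 0.61 in tdT+ cells (adjusted p = 0.715), and the tdT- value was -0.14 without mouse 177. Ifnar2 had means of 102 and 120 CPM in tdT- and tdT+ cells of CTL mice and of 134 CPM in both populations after LPS, with log2 fold changes of 0.39 ± 0.28 (adjusted p = 0.357) and 0.16 ± 0.28 (adjusted p = 0.872). The standard error of 0.61 for Ifnar1 leaves changes of this size undetectable.

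Markers of other cells differed with treatment. The summed level of 7 neutrophil markers was 0.733 to 180 CPM in CTL and 102 to 754 CPM in LPS libraries, where S100a8 had the highest median. By contrast, S100a9 and Ngp reached 15.1 and 20.3 CPM in CTL and did not exceed 2.18 and 1.27 CPM in LPS libraries. Retnlg, of the same list, was at 23.2 to 642 CPM in tdT- LPS and at or under 1.02 CPM in tdT+ LPS libraries, and Ly6g and Cxcr2 did not exceed 7.65 CPM in any library. The 6 monocyte markers summed to 1707 to 4341 CPM in CTL and 1946 to 3850 CPM in LPS, led by F13a1. The 12 border macrophage markers summed to 6240 to 12453 CPM for tdT- and 14235 to 16381 CPM for tdT+ cells of CTL mice, and after LPS to 7219 to 8285 and 8635 to 10803 CPM. In tdT+ cells this sum was lower after LPS, as were Tgfbr2, Il10ra and Ifngr1. Its members differed in direction there, with medians in CTL and LPS of 6175 and 1479 CPM for Csf1r and 3141 and 1022 for Mrc1, but 178 and 1039 for Itgam, 262 and 758 for Fcgr1 and 1602 and 2420 CPM for Pf4. The 4 microglia markers summed to 74.7 to 665 CPM in CTL and 540 to 854 CPM in LPS, and the members differed in direction. In tdT+ cells the median of Tmem119 was 80.5 CPM in CTL and 627 in LPS, that of Siglech 276 and 17.9, and that of P2ry12 216 and 56.4 CPM, with Sall1 at or under 1.97 CPM in every library. Summed markers of the remaining lists did not exceed 9.02 CPM in any library for T and NK cells, 53.9 for platelets, 64.7 for endothelial cells, 114 for B cells, 125 for mast cells, 230 for mural cells and 765 for erythroid cells, the last in tdT- CTL. The part of these shifts in the receptor values was not tested.

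The populations were compared next, to ask whether cells labelled through Ccr2 carry other receptor levels than unlabelled cells. In CTL mice 0 of the 10 receptors was called (4.68% of all genes tested were), and 4 had an unadjusted p under 0.05, as had 3914 of all genes. DESeq2 called 1 of the 10, and 1978 of all 16632 genes. The log2 fold changes of tdT+ against tdT- cells ran from -0.15 (Il10rb) to 0.89 (Il4ra) with a median of 0.46, against -0.01 for all genes. Tgfbr2 came closest, at 761 ± 95 CPM in tdT+ and 434 ± 128 CPM in tdT- cells (SD, n = 5). It was free of overlap and higher in tdT+ cells in 5 of 5 mice (log2 0.81 ± 0.25, adjusted p = 0.0657). It passed the threshold without mouse 61 (adjusted p = 0.0383) or mouse 175 (0.0380), with RLE scaling (0.0448), with the stricter filter (0.0427) and under DESeq2 (0.0102). With the mouse as a block, by voom with an estimated correlation, Tgfbr2 (adjusted p = 0.00442), Il10ra (0.78, adjusted p = 0.0250) and Ifngr1 (0.34, adjusted p = 0.0393) were called higher in tdT+ cells. That fit called 2422 of 16632 genes, 2029 of them higher, and the median log2 fold change of all genes in it was 0.54. With the mouse as a term in edgeR no receptor was called, and 3 of 14405 genes were. Like Tgfbr2, Ifngr1 was higher in 5 of 5 mice. These were the only receptors with the same sign in every CTL mouse, 2 of the 10 against 9.46% of all genes. Il4ra differed by 0.89 ± 0.33 (adjusted p = 0.126), and by 1.35 (adjusted p = 0.0192) without mouse 179, whose tdT- library held the highest tdT- CTL level. The border macrophage marker sum also separated these groups, and its part was not tested.

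In LPS mice 0 of the 10 receptors was called between tdT+ and tdT- cells (0.0301% of all genes were), and 0 had an unadjusted p under 0.05, against 899 of all genes. DESeq2 also called 0 of the 10, and 60 of all 16632 genes. Log2 fold changes ran from -0.34 to 0.29 with a median of 0.06. Even so, 3 receptors had the same sign in every LPS mouse (9.9% of all genes). Il4ra was higher in tdT+ cells in 5 of 5 mice, at 1513 ± 89 against 1237 ± 39 CPM (SD, n = 5) and without overlap, although the common fit gave 0.29 ± 0.33 (adjusted p = 1). It was called with the mouse as a block (0.29, adjusted p = 0.00827, voom) and with quality weights (0.28, adjusted p = 0.00874). Il13ra1 was higher in 5 of 5 mice by 0.08 ± 0.72 and Ifngr2 lower in 5 of 5 by -0.34 ± 0.23, with adjusted p = 1 for both. Within a mouse, the log2 ratio of tdT+ to tdT- cells reached 11.05 for Il13ra1 in mouse 179 and 7.71 for Ifnar1 in mouse 177 of CTL, and in LPS mice it stayed between -1.68 and 0.82.

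**Figure D5:**
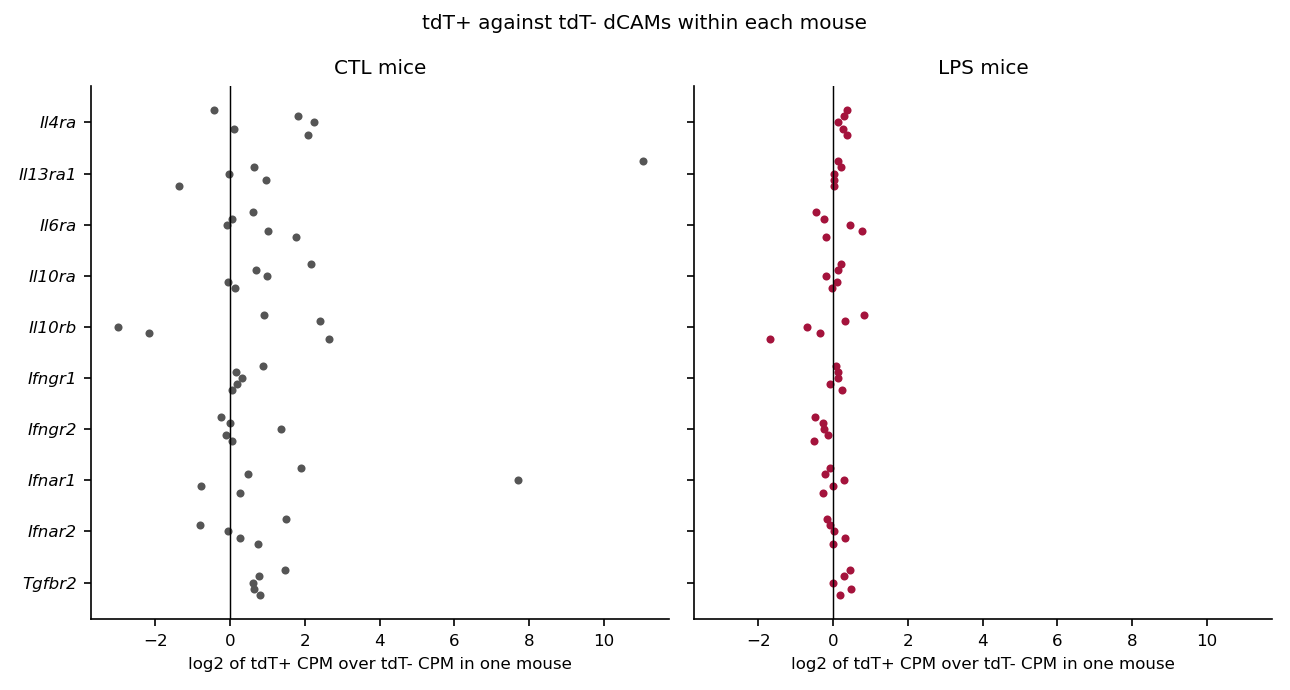
Log2 ratio of tdT+ CPM to tdT- CPM of each receptor in each of 5 CTL mice (left) and 5 LPS mice (right). All CTL points of Tgfbr2 lie above 0, and points of LPS mice gather near 0, where the CTL mice reach 11.05 for Il13ra1 and 7.71 for Ifnar1.

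A further contrast subtracted the LPS effect in tdT- cells from that in tdT+ cells. None of the 10 passed (1.26% of all genes did), and 0 had an unadjusted p under 0.05, against 2181 of all genes. DESeq2 also called 0 of the 10, and 776 of all 16632 genes. The differences ran from -0.77 ± 0.87 (Ifnar1) to -0.19 ± 1.10 (Il10rb), with the smallest adjusted p of 0.610 for Tgfbr2 (-0.53 ± 0.35). Il6ra, called in tdT- cells alone, differed by -0.53 ± 0.42 (adjusted p = 0.744). All 10 values were below 0. They are built from the same CTL libraries in which tdT+ levels of 9 of the 10 were the higher.

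The receptors act with ligands, partner chains and transducers, and 4 lists of these were examined. Of 13 ligands 11 were tested (not Il13 and Ifng), and 1 was called higher in each population (7.67% and 3.79% of all genes tested) and 0 lower (4.85% and 2.83%). It was Ebi3, a subunit of IL-27 and IL-35, at 56.5 and 42.6 CPM in tdT- and tdT+ CTL and 148 and 134 CPM in LPS (log2 1.39 ± 0.30, adjusted p = 0.00357, and 1.65 ± 0.30, adjusted p = 0.00106). Only 5 of the 11 had a mean log2 CPM of at least 4, and no median is given for this list, since Ifnb1 and Il22 had no count in either tdT- group. Il10 itself had means of 48.8 and 47.8 CPM in CTL and 20.5 and 36.5 CPM in LPS and was not called.

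Of 15 partner chains 12 were tested (not Il13ra2, Il22ra1 and Il20ra), with 3 higher and 3 lower in tdT- cells (7.67% and 4.85% of all genes tested) and 3 higher and 1 lower in tdT+ cells (3.79% and 2.83%). Il2rg, the common gamma chain that pairs with the product of Il4ra, rose from 238 to 421 CPM in tdT- (log2 0.82 ± 0.21, adjusted p = 0.0136) and from 176 to 402 CPM in tdT+ cells (1.19 ± 0.22, adjusted p = 0.000879). Il6st, which encodes gp130, the signalling partner of the Il6ra product, rose from 78.9 to 303 CPM (1.94 ± 0.46, adjusted p = 0.00710) and from 62.9 to 423 CPM (2.75 ± 0.48, adjusted p = 0.000534). Lifr, a gp130 partner for LIF, fell from 123 to 30.5 CPM (-2.02 ± 0.58, adjusted p = 0.0242) and from 184 to 25.0 CPM (-2.88 ± 0.60, adjusted p = 0.00313). The other called chains, named after their values were seen, were Osmr (higher in both), and Il11ra1 and Il27ra (lower in tdT- cells). Osmr exceeded 3 counts in 1 of 5 tdT- and 0 of 5 tdT+ CTL libraries. It did so in every LPS library, with means of 8.20 CPM in tdT- and 12.1 CPM in tdT+ cells. Il27ra exceeded 3 counts in 1 of 5 tdT- CTL libraries and in 0 of 5 tdT- LPS libraries (mean 11.5 ± 25.8 CPM in CTL), so that its call rests on 1 library. Tgfbr1, which completes the TGF-beta receptor with Tgfbr2, had means of 147 and 217 CPM in CTL and 117 and 111 CPM in LPS and was not called (adjusted p = 0.760 and 0.411). Over the list, the median log2 fold change was 0.98 in tdT+ cells. No median is given for tdT- cells, since Ifnlr1 had no count in either tdT- group. Only 7 of the 12 had a mean log2 CPM of at least 4.

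Of 26 transducers and feedback regulators, all tested, 3 were higher in tdT- cells (7.67% of all genes tested) and 4 in tdT+ cells (3.79%), and 0 were lower (4.85% and 2.83% of all genes). Stat3, which carries IL-6 and IL-10 signals, rose from 168 to 481 CPM in tdT- (1.51 ± 0.33, adjusted p = 0.00327) and from 202 to 510 CPM in tdT+ cells (1.34 ± 0.32, adjusted p = 0.0120). Socs3, a feedback inhibitor that binds gp130, rose from 379 to 1377 CPM (1.86 ± 0.27, adjusted p = 6.99e-05) and from 276 to 1752 CPM (2.66 ± 0.28, adjusted p = 1.06e-06). Jak3 in tdT- cells, and Socs2 and Usp18 in tdT+ cells, were the others called, named after their values were seen. Jak3 exceeded 3 counts in 3 of 5 tdT- CTL libraries (mean 1.62 CPM), and Socs2 in 2 of 5 tdT+ CTL libraries (0.545 CPM). Stat6, the transducer of IL-4, was not called, and median log2 fold changes of the list were 0.56 and 0.35.

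Of 25 other cytokine receptors 8 were higher and 1 lower in tdT- cells (7.67% and 4.85% of all genes tested), and 4 were higher and 3 lower in tdT+ cells (3.79% and 2.83%). Il15ra, which presents IL-15, rose from 21.4 to 254 CPM in tdT- (3.57 ± 0.97, adjusted p = 0.0177) and from 13.8 to 250 CPM in tdT+ cells (4.18 ± 0.997, adjusted p = 0.0110). Csf1r, the growth factor receptor that BLZ945 inhibits, fell from 2709 to 1362 CPM (-0.99 ± 0.17, adjusted p = 0.000454) and from 5992 to 1416 CPM (-2.08 ± 0.18, adjusted p = 5.85e-08). Only 12 of the 25 had a mean log2 CPM of at least 4. Il1r1, Il2rb and Il12rb1, called higher in tdT- cells, exceeded 3 counts in 0 of 5 tdT- CTL libraries. The median log2 fold change of this list was 2.18 in tdT- cells. No median is given for tdT+ cells, since Il5ra had no count in either tdT+ group. In CTL mice 3 genes of the list were called higher and 1 lower in tdT+ cells (4.68% of all genes were called).

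For each receptor the most similar genes were sought among 5823 genes by the root mean square difference of centred log2 CPM over the 20 libraries. Close to Il4ra was Agtrap (0.400), with medians of 46.0 and 78.3 CPM in tdT- and tdT+ CTL and 320 and 373 CPM in LPS. Closest to Tgfbr2 were Trf, which encodes transferrin (0.339), and Dock8 (0.371), with Trf medians of 3556 and 4673 CPM in CTL and 767 and 955 CPM in LPS. For Ifngr1 they were the lysosomal genes Laptm5 (0.160) and Creg1 (0.176). For Il10ra they were 5031439G07Rik (0.287) and Tnfaip8l2 (0.375), for Il6ra Cyb5r3 (0.329) and Map2k2 (0.335), for Ifngr2 Arrdc1 (0.273) and Adipor1 (0.305), and for Ifnar2 Rhoa (0.233) and Slc25a11 (0.237). For the others they were Ubap1 (0.404) and Ogt (0.474) for Ifnar1, Hsd17b4 (0.487) and Ctbp2 (0.513) for Il13ra1, and Serf2 (0.644) and Fam204a (0.697) for Il10rb. The measure grows with the spread of the receptor itself, which was 0.466 (SD of log2 CPM) for Ifngr1 and 2.07 for Il13ra1, so values of different receptors cannot be ranked. All these genes share libraries and depth with the receptors, and the likeness is a description.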

How the data were processed

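Total RNA from sorted cells was converted by a low-input, PCR-based kit without molecular identifiers, so that floors and errors from counts cover counting error only. Per the submitters' processing notes, the authors demultiplexed reads with bcl2fastq 2.20, aligned them with STAR 2.7.11a and assigned them to genes with featureCounts 2.0.6, for which the study's methods name another version. The deposited values are raw counts per gene symbol, not normalized. The study names more than 1 genome build for its bulk data, and the one behind this table was not settled.

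The labels gave the groups and the mouse numbers. A gene needed a total of at least 10 counts, which 16632 had. After TMM scaling, edgeR 4.0.16 in R 4.3.3 fitted all 20 libraries together with 1 mean per group (quasi-likelihood test), with Benjamini-Hochberg adjustment over all genes and a threshold of 0.05. CPM are counts per 1e6 scaled counts, with a floor of 3 counts per library. Levels per kilobase used the union of annotated exons. The script was tested on simulated data.

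The 2 libraries of a mouse come from the same dura, so the mouse number pairs them. The correlation of paired deviations across 5823 genes was -0.00460 to 0.0461 in CTL and 0.228 to 0.449 in LPS mice. The reported fit has no term for the mouse, and fits with the mouse as a block are among the alternatives, as are other scalings and filters, DESeq2 1.42.0, voom from limma 3.58.1, thinning to the smallest total, the letter F or M that opens each title, and leaving out each mouse. No 2 libraries of the same group agreed within sampling noise. P-values of the reported fit refer to the spread between libraries of a group, which come from separate mice. For tdT+ against tdT- cells, and for the difference of the LPS effects, that fit treats the 2 libraries of a mouse as independent. Its estimate of the spread draws on all 4 groups, the scattered tdT- CTL libraries included.

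All 10 receptors are named. From each list of related genes a rule named at most 4, those called in both LPS comparisons with the largest mean change and a mean log2 CPM of at least 4, and for each receptor the 2 most similar genes. Some of these results are not reported here. Other list genes named in the text were chosen after their values were seen or as direct partners of a receptor. Members and lists were chosen with earlier results of these data known. Promoters came from a RefSeq table.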

Additional observations from a re-analysis of the deposited data

Results flagged for a closer look

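In groups of 5 libraries, the highest or lowest library was compared with the rest by the gap to its neighbour over the whole range (Dixon's criterion), in 40 groups and on 2 scales, and 7 values passed, 2 of them from the same library. Chance alone passes about 1 in 20 groups. They were Il10rb in tdT+ LPS, with 2.57 CPM in mouse 54 against 5.22 to 6.02 CPM in the others, and Il4ra in tdT+ LPS, with 1359 CPM in mouse 59 against 1518 to 1578 CPM. Il13ra1 was at 0.131 CPM in tdT- CTL mouse 179 against 134 to 411 CPM, and at 160 CPM in tdT+ CTL mouse 174 against 261 to 290 CPM. In tdT- CTL mouse 177, Ifngr2 was at 119 CPM against 320 to 384 CPM and Ifnar1 at 1.47 CPM against 86.1 to 333 CPM. Tgfbr2 was at 82.3 CPM in tdT- LPS mouse 61 against 144 to 172 CPM. Il13ra1 and Ifnar1 in tdT- CTL and Tgfbr2 passed on the log scale alone, and the other 4 on both scales.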

How the results depend on the processing

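Of 1010 receptor values under 21 alternatives, 958 kept direction and side of the threshold, 10 were no longer called, 22 became called, 20 uncalled values changed sign, and 0 called values reversed. Il4ra, Tgfbr2 and Ifngr1 were called after LPS in both populations under every alternative run, as was Il10ra in tdT+ cells. Counts of called receptors moved as follows, with called genes of all 16632 in brackets, or of the number given. Fits without a mouse tested 16249 to 16455 genes. For LPS in tdT- cells it was 5 (2081) and 3 with the libraries of the comparison alone (929 of 15278). Leaving out 1 mouse it was 4 to 6 (1411 to 2771). For LPS in tdT+ cells it was 4 (1100) and 7 with voom quality weights (3860). Leaving out 1 mouse it was 4 to 5 (749 to 1236). For tdT+ against tdT- in CTL it was 0 (778). With RLE scaling (773), DESeq2 (1978) or the stricter filter (972 of 12115) it was 1. Leaving out 1 mouse it was 0 to 1 (511 to 1428). With the replicate block it was 3 by voom (2422) and 0 by edgeR within treatment (3 of 14405). In LPS mice it was 0 (5), and 1 with quality weights (160). The replicate block there gave 1 by voom (37) and 0 by edgeR within treatment (147 of 15163). The block changed 1 other call, Ifngr2 in tdT+ cells after LPS. The difference of the LPS effects gave 0 throughout. A fit of it on the libraries of the comparison alone is the reported fit and was not run again. In tdT- cells the uncalled change of Il13ra1 had the opposite sign under both voom fits (0.77 with the block, 0.17 with quality weights). The median of all genes in these fits was 0.76 and 0.68, against 0.02 in the reported fit. Causes were not tested beyond the values given. Depth was lower in CTL. Counts of Il10rb were as low as 17 in a library, and 99 in the library with the smallest total (tdT+ of mouse 174). The part of depth in these counts was not tested.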
